A study of Drosophila melanogaster with 4 samples.

Results

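Long gaps in the H4K20me1 landscape of the Drosophila melanogaster genome were examined, that is, stretches of at least 30 kb in which no region of enrichment was called. They were chosen by the positions of regions in the list called on the set of replicates (the combined list), over the X chromosome and the arms 2L, 2R, 3L and 3R, counted here as 5 arms. A gap is each interval of 30 kb or more between the end of one region and the start of the next on the same arm, with the ends of the arms left out. Of the 6670 intervals between successive regions on these 5 arms, 693 were such gaps. The list that chose the gaps was itself the measurement, so their number, lengths and flanks are a description and carry no test.

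The material was wild-type embryos of the strain Oregon-R, aged 14 to 16 h and profiled as whole embryos by chromatin immunoprecipitation with sequencing (ChIP-seq). The 4 samples were 2 ChIP replicates with an antibody against H4K20me1 and 2 inputs. Besides the combined list, each ChIP replicate has its own list of regions, called the replicate 1 and replicate 2 lists. Whether the replicates were collected separately is not stated in the labels, and their spread may therefore be technical. Positions are on FlyBase release 5 of the genome.

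H4K20me1 is histone H4 that carries a single methyl group on lysine 20. The methyltransferase PR-Set7 places it, and other enzymes can add further methyl groups to the same residue. Fly cells that lack PR-Set7 accumulate DNA damage and condense their mitotic chromosomes poorly. In mammalian cells the mark forms broad domains, often over the bodies of transcribed genes, so that marked and unmarked stretches alternate along a chromosome. A gap here is a stretch where no region passed the authors' threshold. The lists hold no signal between regions, so the level of the mark inside a gap is unknown.

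The gaps held 55.1 Mb, or 46.3% of the 5 arms, while all regions of the combined list together held 31.3%. Gaps made up 10.4% of the intervals but 67.6% of the bases between regions. Their median length was 59.2 kb, with quartiles of 41.1 and 95.2 kb, against a median of 2345 bp over all intervals. Gaps of 30 to 50 kb numbered 270 and held 19.1% of the gap bases. There were 267 gaps of 50 to 100 kb, with 34.3% of the gap bases, and 126 of 100 to 200 kb, with 31.5%. The 30 gaps of 200 kb or more held 15.1%. Thus 50% of the gap bases lay in gaps of at least 94.95 kb.

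Gaps took the largest share of X, at 50.7%, and of 2L, at 50.1%. They made up 47.2% of 3L, 44.8% of 3R and 38.3% of 2R. Arm 2R also had the fewest gaps for its length, 5.25 per Mb, and the shortest, with a median of 49.6 kb. X had 6.11 gaps per Mb with a median of 63.1 kb, and 2L had 6.04 with a median of 64.7 kb. In the lists of the single replicates, searched by the same rule, gaps took 57.6% ± 1.19 of X, 55.4% ± 0.947 of 2L, 50.5% ± 0.869 of 3R, 50.2% ± 0.667 of 3L and 42.3% ± 0.272 of 2R (SD, n = 2 each). The arms X, 2L and 2R kept their places in both replicate lists, while 3L and 3R differed by less than the spread between replicates. Arms of 1 genome are not replicates, and differences between arms were not tested.

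**Figure D1:**
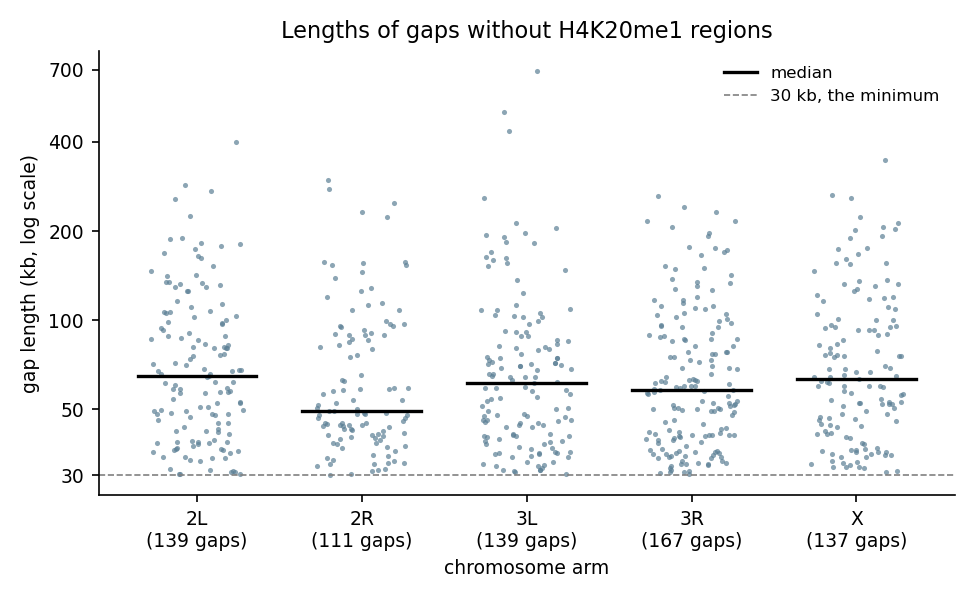
Length of each of the 693 gaps (kb, log scale) on the 5 chromosome arms, 1 point per gap, with the median of each arm as a black bar and the 30 kb minimum as a dashed line. Medians run from 49.6 kb on 2R to 64.7 kb on 2L, and the 3 longest gaps are on 3L.

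The 10 longest gaps together spanned 3.77 Mb, 6.85% of the gap bases. Of these, 3 were on 3L, 3 on 2L, 2 on 2R, 2 on X and 0 on 3R. The longest ran on 3L from 23329721 to 24023756 (694 kb), 0.520 Mb from the centromere end of the sequence. It was bounded by weak regions, with scores of 0.63 and 0.45. The score is the authors' value for a region, taken here to be a log2 ratio. The replicate lists left 694.98 kb and 695.02 kb free at this place, a difference of under 0.1 kb.

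The second longest gap followed it directly on 3L, from 24029150 to 24532253 (503 kb). Replicate 2 had a free interval of 503.6 kb here. Replicate 1 had no region beyond the gap, so its unmarked stretch ran to the end of the arm and measured 515 kb. By the rule used here, which leaves out arm ends, replicate 1 has no gap at this position. It is the 1 gap of the 693 that no gap of the replicate 1 list overlapped.

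The third ran on 3L from 18177578 to 18612248 (435 kb), 5.93 Mb from the centromere end, with 434.6 and 435.7 kb free in replicates 1 and 2. The fourth, on 2L from 22478622 to 22877421 (399 kb), was longer in the replicate lists, at 484.9 and 480.96 kb. Its right flank, 1549 bp wide with a score of 0.22, was in neither replicate list. The fifth lay on X from 21501374 to 21847708 (346 kb), with 353.2 and 353.1 kb free in the replicates.

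The remaining long gaps were away from the centromere ends, apart from the one on 2R from 707996 to 1004716 (297 kb). They lay on 2L at 14689912 to 14976424 (287 kb) and 16917003 to 17190192 (273 kb), on 2R from 15722102 to 15998386 (276 kb) and on X from 7237398 to 7502515 (265 kb). On 3R the longest gap ran from 8546070 to 8808706 (263 kb), 8.55 Mb from the centromere end, and was the eleventh longest (rank 11). Replicate lists left 262.999 and 262.7 kb free there.

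At the other end of the range, membership turned on small differences. The 5 shortest gaps measured 30016, 30163, 30265, 30284 and 30336 bp, and the 5 longest intervals below the limit measured 29994, 29979, 29978, 29943 and 29895 bp. The shortest gap, on 2R from 15132483 to 15162498, separated strongly enriched regions with scores of 2.42 and 2.47. The interval just below the limit, on 3R from 25959975 to 25989968, lay between regions with scores of 0.23 and 1.65.

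Gaps were found along the whole of each arm and, in the combined list, were most extensive next to the centromere, except on 3R. All bases between regions count here, including any where reads could not be placed, which the lists do not show. The centromere lies at the high coordinates of 2L, 3L and X and at the low coordinates of 2R and 3R. In the 2 Mb at the centromere end, gaps held 92.6% of 3L, 81.6% of X, 78.8% of 2L and 70.4% of 2R. Over the rest of each arm they held 43.2% of 3L, 47.6% of X, 47.4% of 2L and 34.9% of 2R. On 3R the values were 46.1% in the proximal 2 Mb and 44.7% in the rest. The replicate lists gave 85.01% ± 0.418 for proximal X and 54.9% ± 1.27 for the rest of X, and 50.7% ± 2.55 for proximal 3R and 50.5% ± 0.739 for the rest of 3R (SD, n = 2 each). For proximal 3L they gave 67.9% and 93.4%, because the last gap of that arm is not bounded in replicate 1. On 2L they gave 79.3% ± 0.244 for the proximal 2 Mb and 53.1% ± 1.01 for the rest (SD, n = 2 each). In 10 equal parts of 2L, the part next to the centromere held 73.8% and 73.5% in replicates 1 and 2. The fourth part from the centromere held 73.3% and 75.1%, so it was no lower in replicate 2.

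The gaps of the proximal parts also tended to be longer. The median gap measured 206 kb in the proximal 2 Mb of 3L (6 gaps) and 59.2 kb in the rest of that arm. On X it was 142 kb (10 gaps) against 62.0 kb. On 2L it was 68.6 kb (15 gaps) against 63.0 kb, and on 2R 57.3 kb (14 gaps) against 48.6 kb. On 3R the proximal gaps were shorter at the median, 48.97 kb (13 gaps) against 58.5 kb.

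The gaps nearest the centromere started within 0.07 Mb of the end of the sequence on each arm. They measured 80.3 kb on 2L (22878971 to 22959270), 231 kb on 2R (20625 to 251628), 503 kb on 3L, 41.3 kb on 3R (66695 to 108003) and 130 kb on X (22256339 to 22386753). The next gaps inward were 399 kb on 2L, 56.3 kb on 2R, 694 kb on 3L, 30.3 kb on 3R and 192 kb on X, and the ones after these 42.2, 126, 214, 150 and 41.7 kb on the same arms in that order. On 2R, 2 regions separated the first gap from the second, one of 1440 bp with a score of 1.33 and one of 1559 bp with a score of 0.76. The first was in the list of replicate 1 alone and the second in neither list, so replicate 2 had a single unmarked interval of 336 kb over both gaps, where replicate 1 had 231 and 63.6 kb. The stretches beyond the last region at each arm end, which the rule leaves out, measured from 3 bp at the centromere end of 3R to 129 kb at the telomere end of 3L.

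The share in gaps changed several-fold from place to place. The arms were cut into 119 bins of 1 Mb, counted from the centromere end, of which the last on 3L and on 3R were shorter. None was without gap bases, and the share ran from 8.09% to 98.3% with quartiles of 34.6% and 56.4%. The lowest share was on 2R from 3000001 to 4000000, where gaps held 8.09% and regions 46.8% of the bases. The shorter last bin of 3L, from 1 to 543557, had 10.1% in gaps, and the bin on 3L from 7543558 to 8543557 had 15.2%. Bins with 75% or more in gaps numbered 7. Of these, 6 lay in the 2 Mb next to the centromere of 2L, 2R, 3L or X. The seventh lay on 3L from 17543558 to 18543557, with 76.8% in gaps, and took in most of the third longest gap. Bins with 72.5% on 3R from 8000001 to 9000000 and 72.2% on X from 13422828 to 14422827 were other gap-rich places inside arms.

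**Figure D2:**
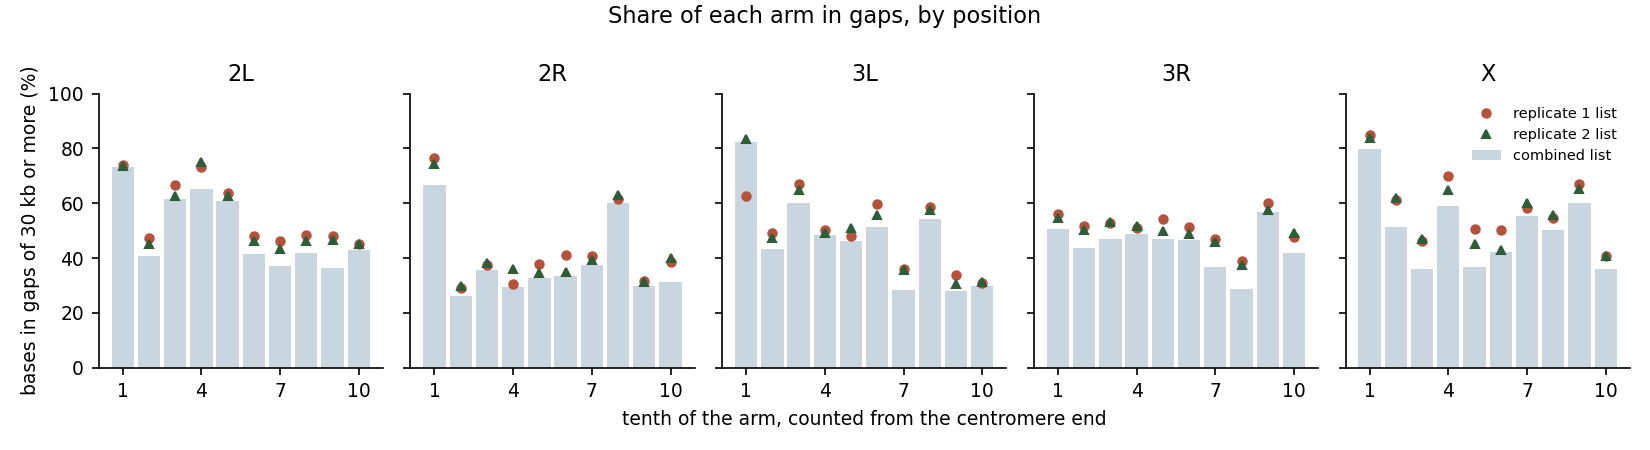
Percentage of bases in gaps of 30 kb or more for 10 equal parts of each arm, counted from the centromere end (bars, combined list; circles and triangles, gaps found in the replicate 1 and replicate 2 lists). The bar nearest the centromere is at 82.4% on 3L, 79.7% on X, 73.2% on 2L and 66.6% on 2R but 50.6% on 3R, and the replicate 1 value there on 3L is lower because its last gap is not bounded there.

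Inside the gaps the lists of the single replicates were nearly empty. Regions of replicate 1 covered 7275 bp of the 55.1 Mb, or 0.0132%, and those of replicate 2 covered 25666 bp, or 0.0466%, a mean of 0.0299% ± 0.0236 (SD, n = 2). Both replicates went into the combined list, so this emptiness is no independent support for the gaps. In 370 gaps (53.4%) neither list had a single base, a share no higher than the 56.6% of intervals of 10 to 30 kb and the 55.4% of intervals of 1 to 10 kb. A further 128 held bases of replicate 1 alone, 172 of replicate 2 alone and 23 of both lists. With 1 kb left out at each edge, 686 gaps had no base of either list. No base of any gap was covered in both lists at once. The highest share of a gap covered was 1.83% in replicate 1 and 3.74% in replicate 2.

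Most of these bases were the margins of regions that straddled a gap edge. In replicate 1, 156 regions reached into gaps, all over an edge, by 29.5 bp at the median and by 840 bp at most. In replicate 2, 205 regions did so, by 39 bp at the median and 1133 bp at most. Shorter intervals between regions showed a larger share of replicate bases. Every interval has 2 edges whatever its length, so bases at edges take a larger share of a short one. These shares therefore do not show that gaps were emptier. The share was 0.0299% ± 0.0236 in gaps, 0.152% ± 0.0490 in intervals of 10 to 30 kb and 0.515% ± 0.115 in intervals of 1 to 10 kb (SD, n = 2 each).

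Regions that lay wholly inside a gap numbered 0 in replicate 1 and 7 in replicate 2. They were 1357 to 1671 bp wide and scored 0.42 to 0.71, with a median of 0.54, against a median of 0.78 over all replicate 2 regions on the 5 arms. Of the 7, 5 were on 3R, and 3 of those lay in a pair of neighbouring gaps, at 22145077 to 22146600, 22170341 to 22172011 and 22181685 to 22183249. The strongest, with a score of 0.71, was on 3R from 24349149 to 24350621, 17.6 kb inside a gap of 197 kb. The one on 3R from 10354845 to 10356201 (score 0.54) lay farthest from an edge, 39.7 kb inside a gap of 88.0 kb. The other 2 were on 3L from 7008149 to 7009560 (score 0.42) and on X from 15479798 to 15481255 (score 0.59).

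The 5 gaps with the highest mean coverage over the replicates owed all or nearly all of it to replicate 2. The highest was the 30.3 kb gap on 3R from 159674 to 189938, covered over 0% in replicate 1 and 3.74% in replicate 2, by 1 region that reached 1133 bp across its edge. The 101 kb gap on 3R from 22165660 to 22266662 was covered over 0.00594% in replicate 1 and 3.39% in replicate 2. Next came the gaps on 3R from 22087549 to 22147349 (0% and 3.22%), on X from 15446382 to 15499318 (0% and 2.75%) and on 3R from 14618400 to 14659268 (0% and 2.25%). In each of these the SD over the 2 replicates exceeded the mean. This follows from the arithmetic whenever 1 of 2 values is at or near 0.

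Searched by the same rule, the replicate 1 list held 722 gaps and the replicate 2 list 723, more than the 693 of the combined list. Together they averaged 61.0 Mb ± 0.621 (SD, n = 2), or 51.3% ± 0.522 of the 5 arms. Of the replicate 1 gaps, 682 (94.5%) overlapped a gap of replicate 2, and 702 (97.1%) of the replicate 2 gaps overlapped one of replicate 1. Overlap meant at least 1 base, and gaps took 51.6% and 50.9% of the arms in replicates 1 and 2. Some overlaps would therefore arise at any placement of the gaps. The bases in gaps of both lists came to 58.2 Mb, which was 94.8% of the gap bases of replicate 1 and 96.2% of those of replicate 2. Of the combined gap bases, 98.97% lay in gaps of both replicates, which themselves went into the combined list.

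The replicate gaps were longer where the combined list had extra, weak regions. The lists also differed in their narrowest region, 1001 bp in the combined list and 1301 bp in each replicate list. The part of this width difference in the numbers and lengths of gaps was not tested. Of the replicate 1 gaps, 50 spanned 2 or more combined gaps, and of the replicate 2 gaps 40 did, up to 3 in 1 interval. On X, a 378 kb interval was free of regions in each replicate from 13724276 to 14102327 in replicate 1 and from 13724267 to 14102449 in replicate 2. The combined list divided it into gaps of 167 and 206 kb by a region of 1464 bp with a score of 0.20. On 2R, the 360 kb interval of replicate 1 from 4127988 to 4487539 held 3 combined gaps. A further 84 replicate 1 gaps and 68 replicate 2 gaps overlapped no combined gap. They were short, with medians of 36.1 and 35.1 kb, and the combined regions wholly inside them had median scores of 0.38 in both cases and reached 0.70 and 0.74 at most.

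**Figure D3:**
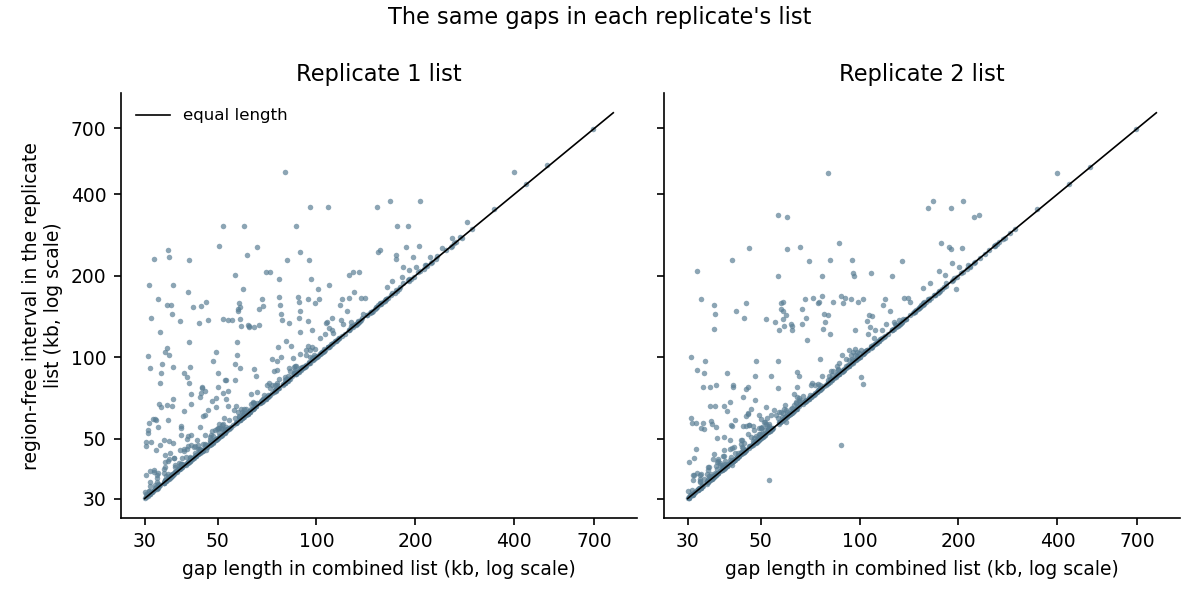
Length of the region-free interval that holds each gap in the replicate 1 list (left) and replicate 2 list (right) against the gap length in the combined list (both in kb, log scales), 1 point per gap, with the line of equal length. Most points lie on the line, 126 gaps in replicate 1 and 95 in replicate 2 sit at 1.5 times the combined length or more, and few in replicate 2 lie below it.

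For 352 gaps (50.8%) the free interval in both replicates was within 5% of the gap length. It was at least 1.5 times as long in both replicates for 72 gaps, and each of these had a flank that touched no region of either replicate. This follows largely from the measure, because a free interval ends at the first replicate region. The largest extension was on X from 18053690 to 18085720, a gap of 32.0 kb inside free intervals of 230 kb in replicate 1 and 208 kb in replicate 2. On 2R, the 41.0 kb gap from 16314582 to 16355617 had both flanks missing from both replicate lists and lay in free intervals of 229.1 and 229.0 kb. Those flanks were 1005 and 1107 bp wide, narrower than any region of the replicate lists (1301 bp or more). Conversely, the free interval in replicate 2 was under 0.9 times the gap length in 4 gaps, and in replicate 1 in 0.

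Where a replicate had a region at a gap edge, the edge was placed closely. Of the 1386 gap edges, 1019 had a region of replicate 1 at the flank and 1067 a region of replicate 2. The replicate's edge was within 1 kb of the combined edge in 95.3% and 96.3% of these. It lay 77 bp outside the gap at the median in replicate 1 and 68 bp in replicate 2. At the 933 edges with a region in both replicate lists, the replicates differed from each other by 105 bp at the median, and by under 1 kb in 94.3%.

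Coverage changed abruptly at the edges and then declined more slowly. The combined list marks the first base outside a gap by definition. Both replicates went into that list, so the step at the edge in their lists is no independent result. The replicate lists covered 50.3% ± 1.23 of the first 10 kb outside the gaps, 36.3% ± 0.512 from 10 to 20 kb, 32.8% ± 0.751 from 20 to 30 kb and 29.7% ± 0.650 from 40 to 50 kb (SD, n = 2 each). The value at 40 to 50 kb stood near the share of the 5 arms marked in these lists, 26.8% in replicate 1 and 27.4% in replicate 2. Stretches around neighbouring gaps overlap, so edges are not independent.

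**Figure D4:**
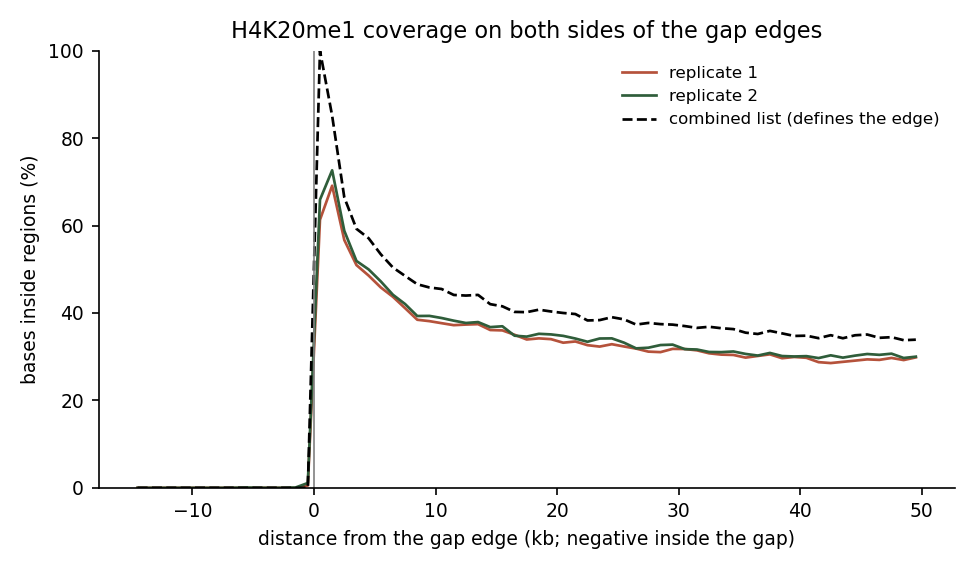
Percentage of bases inside H4K20me1 regions by distance from the edge of a gap (kb, bins of 1 kb, both edges of all 693 gaps; negative values are inside the gap), for the replicate 1, replicate 2 and combined lists. Coverage is near 0 inside and is highest in the first kilobases outside, and the replicate curves run close to each other at all distances.

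The regions that bounded gaps were of all strengths and scored slightly higher than other regions. The 693 gaps had 1274 flanking regions, 112 of which stood between successive gaps and flanked both. Their median score was 0.61, with quartiles of 0.39 and 1.11, against 0.56, with quartiles of 0.39 and 0.99, for the 5406 other regions of the 5 arms. Scores of 1.5 or more, a 2.83-fold ratio, occurred in 11.4% of the flanks and 8.66% of other regions. Widths of 20 kb or more occurred in 6.44% and 3.85%, while median widths were close, at 2961 and 2974 bp. In the replicate lists, regions at gap flanks had median scores of 0.89 (941 regions) in replicate 1 and 0.86 (978 regions) in replicate 2, and all other regions 0.77 and 0.76. The flanks came from the list that defined the gaps, so none of these differences was tested.

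**Figure D5:**
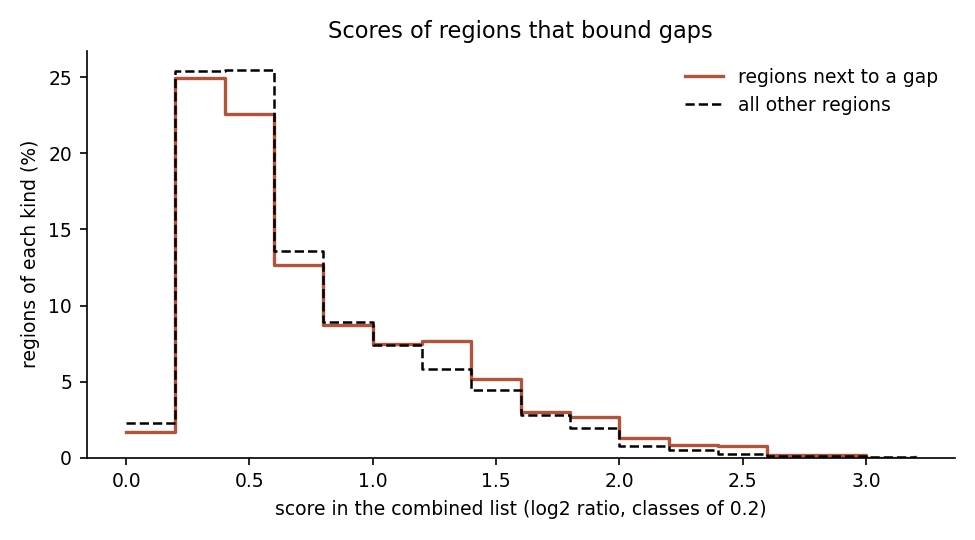
Distribution of scores (log2 ratio, classes of 0.2) in the combined list for the 1274 regions that bound a gap (solid line) and for the 5406 other regions of the 5 arms (dashed line), each as a percentage of its own total. In both the fullest classes lie between 0.2 and 0.6, and flanking regions are somewhat more frequent between 1.2 and 1.4, at 7.69% against 5.81%.

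Support for flanks in the replicate lists was like that for other regions. Of the flanks, 860 (67.5%) touched regions of both replicate lists, 202 (15.9%) of 1 list and 212 (16.6%) of neither. For other regions the shares were 67.9%, 16.6% and 15.5%. Combined regions were at least 1001 bp wide and replicate regions at least 1301 bp. A flank below 1301 bp could therefore touch only a wider replicate region, and the part of this in the shares was not tested. Both flanks were found in both replicates at 312 gaps. At 308 of these the free interval in both replicates was within 5% of the gap length. A replicate region at a flank ends that interval and a missing one lets it run on, so such lengths follow largely from the measure. At 215 gaps at least 1 flank was in neither list. The median free interval of these gaps was 91.0 kb in replicate 1 and 84.9 kb in replicate 2, against a median gap length of 57.6 kb in the combined list.

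The scores of the left and right flank of a gap showed little relation to each other. Across the 693 gaps, Spearman's correlation between them was 0.0317, and that between gap length and mean flank score was 0.0394. These values describe gaps of 1 list, in which neighbouring gaps can share a flank. The flank scores of a gap differed by 0.43 at the median.

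The 5 strongest flanks stood beside gaps of 32.2 to 163 kb. The highest-scoring flank was on 2R from 8803071 to 8811593, with a score of 3.20 in the combined list, 3.25 in replicate 1 and 3.20 in replicate 2, a 9.21-fold ratio. It bounded a gap of 32.2 kb from 8770826 to 8803070. The flank on 3L from 3896809 to 3902889 scored 2.86 beside a gap of 40.6 kb, and the one on 2L from 19492815 to 19498336 scored 2.85 beside a gap of 47.8 kb. A flank on 2L from 21677222 to 21682492 scored 2.75 beside a gap of 58.4 kb. The fifth, on 3L from 10850355 to 10868703, scored 2.67 beside a gap of 163 kb. Replicate scores of these 5 regions ranged from 2.67 to 3.25.

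Scores of 1.5 or more occurred in 11.4% of the flanks, so few gaps had strong regions on both sides. Whether their number departs from that share was not tested. Both flanks scored 1.5 or more at 13 gaps, 1 flank did at 137 and no flank at 543. The longest of the 13 was the 276 kb gap on 2R from 15722102 to 15998386. Its left flank, 8507 bp wide, scored 2.21 in replicate 1 and 2.11 in replicate 2, and its right flank, 7525 bp wide, scored 2.37 and 2.20. Neither replicate list had a base in this gap. The next longest ran on 2L from 6209518 to 6323351 (114 kb), between regions of 31119 and 8295 bp with replicate means of 2.19 ± 0.0494 and 2.11 ± 0.0142 (SD, n = 2 each). On 3R, the 63.3 kb gap from 5635434 to 5698728 lay between a region of 5634 bp with a score of 2.07 and one of 118144 bp with a score of 2.59. On 3L, 2 of the 13 gaps lay side by side, from 13039177 to 13107453 (68.3 kb) and from 13112609 to 13221081 (108 kb), around a region of 5155 bp with replicate scores of 1.90 and 1.96.

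Some gaps followed one another with little marked sequence between them. Gaps at most 10 kb apart were taken as a group. In this way 243 gaps (35.1%), with 38.2% of the gap bases, fell into 109 groups of 2 or more, and 450 stood alone. Of the groups, 91 had 2 gaps, 13 had 3 and 5 had 4 or more. With a limit of 5 kb in place of 10 kb, 151 gaps were in groups. The share of gaps in groups was 43.2% on 2L, 36.5% on 3R, 34.5% on 3L, 30.6% on 2R and 29.2% on X. Of the 176 regions inside the 109 groups, 92 (52.3%) touched regions of both replicates, 43 (24.4%) of 1 and 41 (23.3%) of neither. Over all 6680 regions of the 5 arms the shares were 67.8%, 16.4% and 15.7%. The regions were chosen by their place between gaps at most 10 kb apart, so none could be wider than 10 kb. All regions together had no such limit, and the difference was not tested.

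The 5 groups of widest span spanned 484 to 1203 kb each and consisted of at least 96.4% gap. The widest joined the 2 longest gaps at the centromere end of 3L, from 23329721 to 24532253 (1203 kb). It held 2 regions, with scores of 0.45 and 0.44, and the replicate lists covered 0.305% ± 0.0297 of it (SD, n = 2). On 2L, 5 gaps from 22169324 to 22959270 (790 kb) were separated by 5 regions of up to 3687 bp. The strongest of these scored 1.68, and replicate coverage of the span was 1.14% ± 0.234. On X, 3 gaps from 20395894 to 20901118 (505 kb) were separated by 2 regions with scores of 0.46 and 0.37. On 3L, the group from 18177578 to 18661881 (484 kb) held 1 region, with a score of 0.32.

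The group on 2R from 15519573 to 16120631 (601 kb) differed from the other 4 in the strength of the regions inside it. It held 4 gaps of 32.8, 156, 276 and 115 kb, 15.5 Mb from the centromere end. The 3 regions between them scored 1.33, 2.13 and 2.24 and were in both replicate lists. They covered 3.58% of the span in the combined list, and regions covered 3.41% ± 0.106 in the replicates. The other group of 5 gaps, on 3R from 1650190 to 2024225 (374 kb), held 6 regions, the strongest of which scored 2.58.

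Single regions that stood alone between gaps had a median score near that of all regions and more often a high score. Of the 688 stretches between successive gaps of an arm, 112 (16.3%) consisted of 1 region. These isolated regions had a median width of 2679 bp and a median score of 0.53, against 2971 bp and 0.57 over all regions of the 5 arms, and 73 of them were in both replicate lists, 18 in 1 and 21 in neither. Scores of 1.5 or more occurred in 18 (16.1%), against 9.18% of all regions, a difference that was not tested. The strongest was on 3R from 1824912 to 1834883 (9972 bp), between gaps of 138 and 82.0 kb, with scores of 2.59 and 2.60 in replicates 1 and 2, a 5.99-fold ratio in the combined list. On 3R, the region from 14410720 to 14415162 (4443 bp) lay between gaps of 173 and 60.9 kb and scored 2.39 and 2.21 in the replicates. The next, on 2R from 15998387 to 16005911, scored 2.37 and 2.20 between gaps of 276 and 115 kb.

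The stretches between gaps varied widely in length and number of regions. Their median length was 58.0 kb, with quartiles of 17.6 and 124 kb, and they held 6 regions at the median. Regions covered 58.6% of their bases in all, a value that follows from leaving out the gaps. Stretches of 10 or more regions numbered 238 (34.6%). The longest stretch without a gap was on 3R from 19553572 to 20183819 (630 kb), with 59 regions over 66.8% of it. Next were X from 11221469 to 11811288 (590 kb), with 55 regions over 44.7%, and 2R from 16871789 to 17447887 (576 kb), with 43 regions over 69.1%. The stretch on 2R from 19730500 to 20301011 (571 kb) held the most regions, 70, over 48.99% of its length.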

How the data were processed

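ChIP-seq regions of H4K20me1 from wild-type embryos were analysed as deposited. The submitters' processing notes name Bowtie 0.12.7, and the coordinates follow FlyBase release 5, per the file headers. Details not given in the sources used here include how regions were called, at what threshold, and how replicates were joined. The score deposited by the authors was read as a log2 ratio. Pairs of scores differed by the base-2 logarithm of a ratio of small whole numbers, within 1e-09, in 1227, 1180 and 638 pairs of the replicate 1, replicate 2 and combined lists, and in 0 pairs by their natural or decimal logarithms. What the ratio compares is unknown. No read counts are in the lists, so depth is unknown.

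An interval counted the bases strictly between successive regions, and a gap was one of 30 kb or more. The 1 row of depletion was left out. Overlap meant at least 1 base. Coverage is the percentage of bases inside regions. Means and SD are over the 2 replicates, and nothing was tested, because the gaps were chosen by the combined list itself and no groups were compared. Interval arithmetic was tested on simulated regions.

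Named positions were the 10 longest gaps, the longest of each arm, the 5 nearest the limit on each side, the 5 with the highest replicate coverage, the 5 widest groups, the 5 strongest flanks and the 3 next to each centromere. Other named positions were chosen after their values were seen. The members and lists were chosen with earlier results of these data known. No genome or annotation of release 5 was used, so no genes are named. Alternatives were other minimum lengths, a score filter, other region sets, edge trimming, other grouping distances, a stricter overlap and each replicate alone. Calculations used Python 3.11.15, numpy 2.4.6, pandas 2.3.3 and matplotlib 3.10.9.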

Additional observations from a re-analysis of the deposited data

How the results depend on the processing

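The results are descriptions without a test, so stability here means that a count stayed within 1.5 times, or a value within the SD of the replicates. The 50 kb minimum, which removes gaps by construction, left 423 gaps with 44.6 Mb, of which 225 held no replicate base, and 434 and 439 shared gaps in replicates 1 and 2. The 20 kb minimum gave 61.96 Mb. Bounding gaps by regions at or above the median score gave 68.3 Mb, and leaving out regions that touch no replicate region gave 58.4 Mb. With 1 replicate list in place of the combined list, the gaps held 60.6 to 61.4 Mb. Leaving out 1 kb at each edge raised the gaps free of both lists to 686. Flanks that touch a replicate region had a median score of 0.74. At most 5 kb between grouped gaps left 151 in groups. A reciprocal overlap of 50% lowered the shared gaps to 92.0% and 91.8% of replicates 1 and 2. The other 30 of 45 values were stable. Among them were the number of gaps with 1 replicate list alone (722 to 723), with all 3 lists pooled (693), with arm ends counted (696) and with the end base not subtracted (693, an alternative added after the data were seen). Arm ends can add only the end intervals of the 5 arms, and 1 base hardly moves the limit. The labels of these counts were therefore practically fixed in advance. Coverage inside the gaps was 0.0132 to 0.0466% without 1 replicate and 0.00963% with 1 kb left out at each edge. The latter was well below the 0.0299% of the untrimmed gaps. It counted as stable only because the replicate SD, 0.0236, was nearly as large as that mean. For coverage without 1 replicate the label was fixed in advance, because either of 2 values lies within their SD of their mean. Without 1 replicate, 498 to 542 gaps held no base of the remaining list. No paired analysis was possible because no groups were compared and no region list of the inputs was analysed here. The depth of the libraries is not in the lists, and its part in where a weak region was called was not tested.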
